A study of Mus musculus with 8 samples.

Results

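The genes described here form a set of neuronal differentiation and synaptic genes, listed by name for their roles in newly born neurons. The list was drawn up with earlier results of these data known, so counts and medians over it are descriptions. The list held 51 genes, of which 48 were among the 16302 genes of the deposited table. The remaining 3, Prph, Scg2 and Slc32a1, were not analysed here. By role the 48 were 11 genes of microtubules and growth cones, 3 of intermediate filaments, 5 RNA-binding proteins, 6 transcription factors, 7 adhesion molecules, 9 genes of vesicles and secretion, 3 of transmitter synthesis and transport, and 4 that encode axonal motors or a ubiquitin hydrolase.

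The libraries came from mouse embryos at embryonic day 9.5. The second heart field (SHF), the progenitor region behind the heart tube that adds cells to both of its poles, was micro-dissected, pooled over embryos, digested with trypsin and sorted by fluorescence. GFP+ and GFP- cells came from embryos of the Hoxb1GFP line, in which a reporter allele marks cells with active Hoxb1. The methods also appear to write this allele as Hoxb1-, and the number of copies per embryo was not stated in the sources used here. Tomato+ and Tomato- cells came from Mef2c-Cre;RosatdT embryos, in which the anterior heart field enhancer of Mef2c drives Cre, and tdTomato then marks the recombined cells and all their descendants. GFP is therefore a reporter of Hoxb1 expression, whereas Tomato marks cells with present or past Cre activity. There were 3 GFP+ libraries, 3 Tomato+ libraries, 1 GFP- library and 1 Tomato- library, so the comparison of GFP+ with Tomato+ cells had replicates and every comparison with negative cells did not.

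At this stage neurons are leaving the cell cycle in the neural tube and the cranial ganglia, close to the dissected region. A new neuron first switches on RNA-binding proteins of the Elav family and transcription factors that fix its fate, then tubulins and microtubule-binding proteins that build its axon, then adhesion molecules that guide the axon, and later the synaptic vesicle proteins and the enzymes that make its transmitter. In cells that are not neurons many of these genes are kept silent by REST, a repressor that binds a sequence called RE1, and many are switched on by basic helix-loop-helix factors such as neurogenins, which bind short motifs called E-boxes.

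Promoter sequences are shown for members that later turn out to differ widely between the sorted populations and whose promoters hold one of these motifs. RefSeq promoters (build GRCm38.p6, 250 bases before to 50 bases after a start) were at hand for 35 of the 48 members and for 10503 genes of the table. The search, on both strands, was for the RE1 core (AGCACC, then any 2 bases, then GGACAG) and for the E-boxes CAGCTG and CAGATG, the latter read as CATCTG on the other strand. By their letters the E-boxes cannot overlap each other, while the core shares 3 end bases with both. Each stretch below is 60 bases, lies before a RefSeq start and is written along the gene's own strand, with the motif in capitals. A gene can have several such starts, and distances below are to the RefSeq start of the promoter shown.
Gad2: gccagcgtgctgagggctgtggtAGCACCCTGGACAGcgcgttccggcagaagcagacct
Rab3c: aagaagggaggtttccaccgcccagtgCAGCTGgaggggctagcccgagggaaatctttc
Ina: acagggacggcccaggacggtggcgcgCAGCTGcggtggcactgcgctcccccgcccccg
Elavl3: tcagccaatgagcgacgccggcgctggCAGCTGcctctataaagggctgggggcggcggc
Slc17a6: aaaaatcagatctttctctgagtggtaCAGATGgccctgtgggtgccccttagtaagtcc
Myt1l: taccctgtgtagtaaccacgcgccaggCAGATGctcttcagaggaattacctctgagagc

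The Gad2 stretch lies at chr2:22622141-22622200 on the plus strand, with the RE1 core 163 bases before the start. Rab3c is at chr13:110280282-110280341 on the minus strand, Ina at chr19:47014519-47014578 on the plus strand, and Elavl3 at chr9:22052034-22052093 on the minus strand, with CAGCTG 108, 135 and 43 bases before their starts. The CAGATG stretches are at chr7:51624405-51624464 for Slc17a6 and chr12:29533189-29533248 for Myt1l, both on the plus strand, 205 and 169 bases before the start. In the GENCODE M21 annotation Slc17a6, Myt1l and Rab3c begin farther upstream, at 51622006, 29528384 and 110280996. Their stretches thus lie within the annotated genes, ahead of a later start only. The RE1 core was found in 1 of 35 members, Gad2, and in 0.0762% of the table's genes. CAGCTG was in the promoters of 14 of 35 members (40%) and of 18% of the table's genes, and CAGATG in 7 of 35 (20%) and 13.7%. Members had more annotated starts per gene than the table as a whole, and per promoter window the shares for CAGCTG were 28.6% of 70 windows against 15.4% of 13497. These are matches of letters only, and no binding was measured.

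The table held reads divided by a size factor for each library, called normalized reads here, and the whole reads could be recovered from them. Total reads ran from 22668185 to 41597870 per library, of which 30.6% to 49.3% were mitochondrial ribosomal RNA, and 12765045 to 27249149 reads were not mitochondrial. The single Tomato- library had the highest share of mitochondrial ribosomal RNA, 49.3%, and 12988912 reads that were not mitochondrial. It also had the most genes at 0 reads, 362, against 73 to 227 in the other libraries. A count of 3 reads, the limit that a count of 0 allows, equalled 2.16 to 4.53 normalized reads. Hoxb1 itself had 720 to 986 normalized reads in the GFP+ libraries 60.8 in GFP-, 292 to 415 in Tomato+ and 199 in Tomato-. Mef2c, whose enhancer drives Cre, had 1412 to 1469 in Tomato+, 2117 in Tomato-, 1892 to 2129 in GFP+ and 1334 in GFP-, so its level was not higher in Tomato+ than in Tomato- or GFP+. Replicates 1 and 3 of each group were far more alike than either was to replicate 2: over genes, the chi-square per degree of freedom was 2.35 for GFP+ and 2.38 for Tomato+ between replicates 1 and 3, and 72.4 to 93.0 for pairs with replicate 2. The paper calls them biological replicates, but the labels do not say that they came from separate pools. The p-values therefore rest on how far these libraries differ among themselves, and that spread may be technical. For that reason counts from the fit are also given with replicates 1 and 3 averaged to a single value.

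Taken over all members, Tomato+ cells carried more neuronal RNA than GFP+ cells. The summed level of the 48 genes was 25279, 23248 and 25492 normalized reads in the GFP+ libraries, 37394 in GFP-, 87525, 87322 and 87533 in the Tomato+ libraries and 74915 in Tomato-. The positive groups did not overlap, GFP- lay between them but nearer to GFP+, and Tomato- lay nearer to Tomato+. In bulk libraries, fewer cells of a type and less RNA per cell cannot be told apart.

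All 48 members passed the filter on low values, a mean of at least 10 normalized reads over the 6 positive libraries. In limma across 16153 genes, 45 members were higher in Tomato+ than in GFP+ at an adjusted p under 0.05, where 20% of all genes were. None was lower, where 19.7% of all genes were, nor was any at an unadjusted p under 0.05, with edgeR or with DESeq2 (0 in each). Of the 45, 42 differed by more than 2-fold, 31 by more than 4-fold and 16 by more than 8-fold. Among all 16153 genes, 901 were called higher in Tomato+ by more than 4-fold. The counts at 2-fold and 8-fold have no share of all genes beside them, so they describe the members only. The median log2 difference of the members was 2.61, against 0.01 for all genes tested. Every Tomato+ library lay above every GFP+ library for 46 of the 48, against 27.4% of all genes. With replicates 1 and 3 averaged, 37 members passed, against 9.24% of all genes. The 8 lost were Stmn3, Stmn4, Mapt, Onecut1, Cntn1, Syp, Rab3a and Chga.

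**Figure D1:**
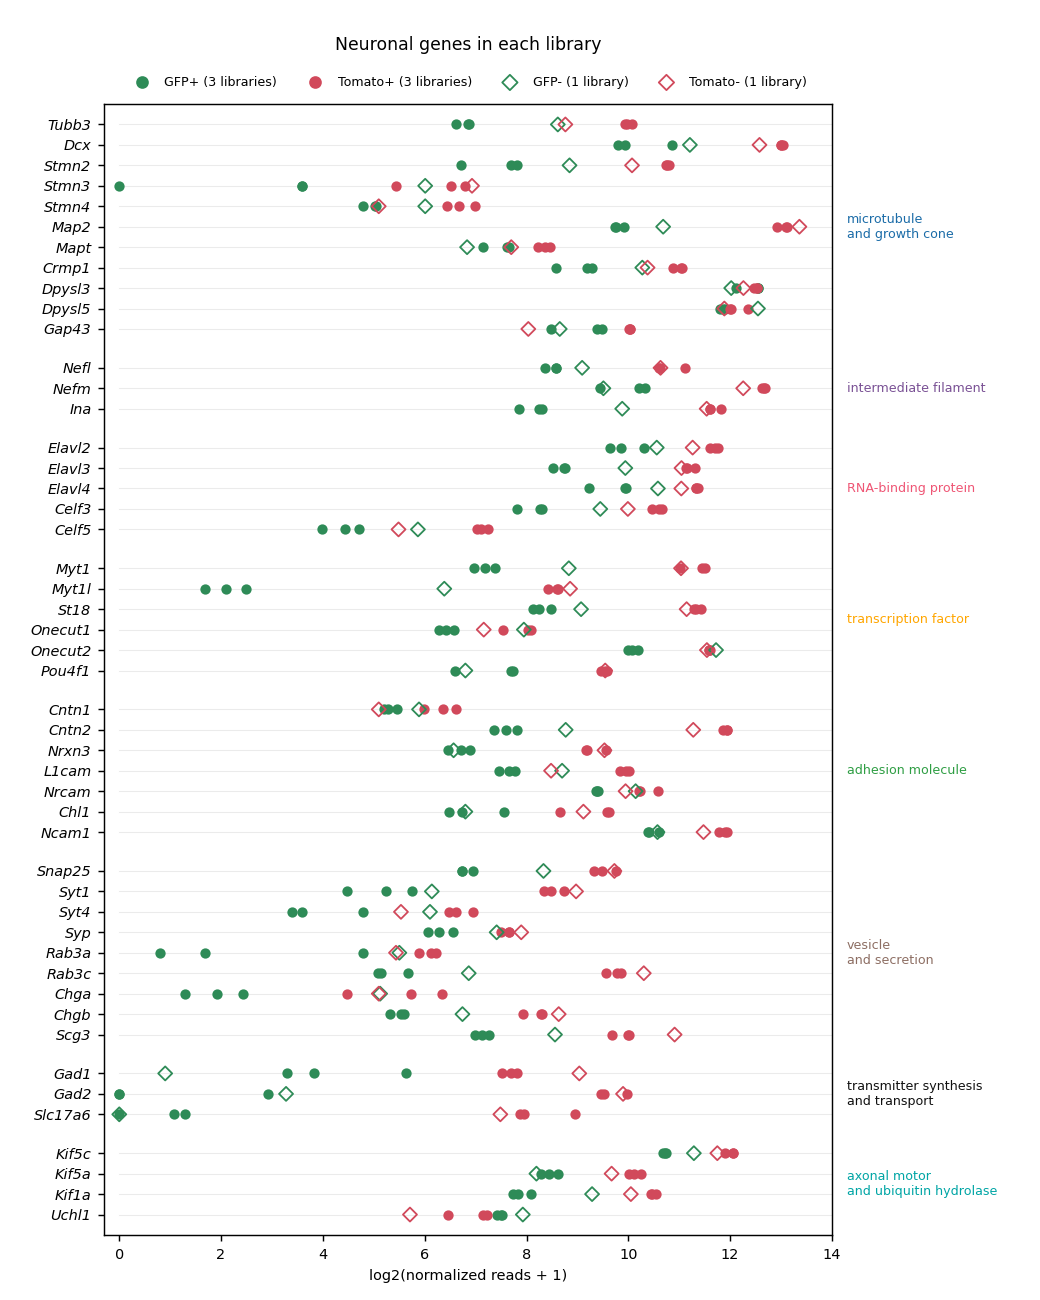
Each row is a member and each symbol a library, on an axis of log2(normalized reads + 1), with filled circles for the 3 GFP+ (green) and 3 Tomato+ (red) libraries and open diamonds for GFP- and Tomato-. For 46 of 48 genes the red circles lie to the right of every green circle, and Dpysl3 and Uchl1 are the exceptions.

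Genes of microtubules and growth cones were the largest role, and 9 of 11 were higher in Tomato+ cells, with a median log2 difference of 1.96. Tubb3, the neuron-specific beta-tubulin, had 96.5, 116 and 115 normalized reads in the GFP+ libraries, 391 in GFP-, 982, 1076 and 1001 in Tomato+ and 433 in Tomato-. Both negative libraries fell between the positive groups. Tubb3 was 9.30-fold higher in Tomato+ than in GFP+ (log2 difference 3.22, SE 0.15, adjusted p = 9.46e-06). Fold changes are from the fit on log2(normalized reads + 1), in which the added 1 and single libraries can move those of low genes in either direction.

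Stmn2, a stathmin that keeps growth cone microtubules dynamic, had 223, 104 and 206 normalized reads in GFP+, 459 in GFP-, 1700, 1723 and 1773 in Tomato+ and 1075 in Tomato-. Its groups were well separated although replicate 2 of GFP+ was 0.49 times the mean of the others (with 1 added to both), and the difference was 10.2-fold (SE 0.27 on the log2 scale, adjusted p = 9.88e-05). Map2, which stabilises microtubules in dendrites, had 864, 852 and 965 in GFP+, 1643 in GFP-, 8855, 7786 and 8814 in Tomato+ and 10511 in Tomato-. Here the highest library was the Tomato- library, and Tomato+ was 9.48-fold above GFP+ (SE 0.09, adjusted p = 1.15e-06). Dcx, the doublecortin of migrating neurons, was 7.03-fold higher with 888, 1846 and 982 in GFP+ and 8151, 8430 and 8171 in Tomato+.

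Dpysl3, a collapsin response mediator, had the highest mean of this role over the 6 positive libraries, the sense in which a member is called the highest of its role below. It had 5974, 4452 and 5995 normalized reads in GFP+, 4153 in GFP-, 5909, 5670 and 5933 in Tomato+ and 4904 in Tomato-. The positive groups overlapped, and the fold of 1.08 (95% interval 0.888 to 1.30) did not pass (adjusted p = 0.516). Its relative Dpysl5 had a fold of 1.20 (1.01 to 1.42), which did not pass either (adjusted p = 0.0829), with 3581 to 3820 in GFP+ and 4062 to 5188 in Tomato+. Crmp1, of the same family, was 3.90-fold higher (adjusted p = 0.000191). Gap43, a growth cone membrane protein, was 1.87-fold higher (adjusted p = 0.0234), a call that did not hold without any of the 3 Tomato+ libraries in turn (adjusted p = 0.0588 to 0.0605). Mapt, which encodes tau, was 1.83-fold higher (adjusted p = 0.0113). It did not pass without Tomato+ replicate 1 (0.0559) or with replicates 1 and 3 averaged (0.104). Stmn3 (14.6-fold) and Stmn4 (3.36-fold) are low genes, at no more than 31.9 normalized reads in any GFP+ library. Stmn3 was lost without Tomato+ replicate 1 or 3 (adjusted p = 0.0633 and 0.0693) and with the averaging (0.0506), and Stmn4 only with the averaging (0.0851). The log2 difference of Stmn3, 3.86, was 2.67 without GFP+ replicate 2, which held 0 reads, 4.46 without GFP+ replicate 1 and 4.46 without GFP+ replicate 3.

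The 3 neurofilament genes, which build the intermediate filaments of axons, were all higher in Tomato+, also with replicates 1 and 3 averaged. Ina, the alpha-internexin that appears first in new neurons, had 301, 230 and 314 normalized reads in GFP+, 941 in GFP-, 3118, 3633 and 3091 in Tomato+ and 2972 in Tomato-. All 4 Tomato libraries lay close together, Tomato- at 3.16 times GFP-, and Tomato+ was 11.7-fold above GFP+ (SE 0.15 on the log2 scale, adjusted p = 5.43e-06). Nefm, the medium chain, had 1280, 696 and 1186 in GFP+, 728 in GFP-, 6492, 6594 and 6350 in Tomato+ and 4888 in Tomato-. Unlike Ina, Nefm in GFP- was within the range of GFP+, and the difference between the positive groups was 6.36-fold (SE 0.21, adjusted p = 8.65e-05). Nefl, the light chain, had 383, 327 and 382 in GFP+, 545 in GFP-, 1582, 2210 and 1560 in Tomato+ and 1586 in Tomato-, a difference of 4.84-fold (SE 0.16, adjusted p = 5.4e-05). Nefl and Nefm are neighbours on chromosome 14 on opposite strands and their annotated exons share 1108 bases, and Ina shares 456 bases with Nt5c2. The library kit named in the labels keeps no strand, so reads from such stretches cannot be told apart.

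All 5 genes for RNA-binding proteins were higher in Tomato+, with a median log2 difference of 2.45, and all 5 held with replicates 1 and 3 averaged. Elavl2, a stabiliser of neuronal messenger RNAs and the highest of the role, had 801, 1260 and 922 normalized reads in GFP+, 1506 in GFP-, 3348, 3124 and 3457 in Tomato+ and 2456 in Tomato-. Its order was GFP+, GFP-, Tomato-, Tomato+, without overlap, and the positive groups differed by 3.39-fold (SE 0.16, adjusted p = 0.000166). Elavl3, of the same family, had 433, 365 and 424 in GFP+, 982 in GFP-, 2244, 2551 and 2279 in Tomato+ and 2110 in Tomato-, in the same order. It was 5.78-fold higher in Tomato+ (SE 0.12, adjusted p = 8.31e-06), and the third member, Elavl4, 3.11-fold.

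The CELF proteins regulate splicing in neurons. Celf3 had 315, 223 and 305 normalized reads in GFP+, 698 in GFP-, 1607, 1404 and 1564 in Tomato+ and 1016 in Tomato-, and was 5.46-fold higher in Tomato+ (SE 0.16, adjusted p = 3.88e-05). Celf5 was far lower, with 20.5, 14.7 and 25.3 in GFP+, 57.3 in GFP-, 129, 137 and 151 in Tomato+ and 43.8 in Tomato-. For Celf5 the negative libraries changed places, GFP- being the higher, and both lay between the positive groups, which differed by 6.75-fold (SE 0.35, adjusted p = 0.000783). An antisense gene shares 543 bases of the exons of Celf5.

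Among the transcription factors all 6 were higher in Tomato+ cells. Myt1l, a zinc finger factor that holds the neuronal state by silencing other programmes, had 2.19, 4.61 and 3.3 normalized reads in GFP+, 82.5 in GFP-, 391, 340 and 387 in Tomato+ and 462 in Tomato-. The GFP+ values are at about the level of 3 reads, and GFP- was 19.1-fold above their mean. From the reads, 11 over the 3 GFP+ libraries and 1208 over the 3 Tomato+ libraries, the ratio was 115.5, with an exact 95% interval of 64.3 to 232 that covers counting error only, as do all intervals from reads. In the fit Myt1l was 87.6-fold higher (SE 0.40 on the log2 scale, adjusted p = 3.28e-05).

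The related Myt1 and St18 were higher in level. Myt1 had 124, 144 and 165 normalized reads in GFP+, 454 in GFP-, 2792, 2081 and 2893 in Tomato+ and 2096 in Tomato-, a difference of 17.7-fold between the positive groups (SE 0.17, adjusted p = 5.51e-06). St18, also called Myt3, had 279, 357 and 304 in GFP+, 537 in GFP-, 2499, 2737 and 2559 in Tomato+ and 2262 in Tomato-, an 8.31-fold difference (SE 0.12, adjusted p = 4.97e-06). In these 3 genes Tomato- was 4.21 to 5.54 times GFP-.

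Onecut2, a cut homeobox factor and the highest of the role, had 1022, 1164 and 1074 normalized reads in GFP+, 3377 in GFP-, 3056, 3082 and 3108 in Tomato+ and 2983 in Tomato-. GFP+ stood alone as the low group and GFP- was the highest library, with a fold of 2.84 between the positive groups (SE 0.09, adjusted p = 2.37e-05). Onecut1 was 2.75-fold higher in Tomato+ (adjusted p = 0.00262) but not with replicates 1 and 3 averaged (0.0681), and 52.3% of its 50-base stretches also occur in an overlapping long non-coding gene, so its level is uncertain. Pou4f1, which specifies sensory neurons, was 4.55-fold higher (adjusted p = 0.00109) and had 746 in Tomato- but 110 in GFP-, within the GFP+ range of 95.9 to 213.

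All 7 adhesion molecules were higher in Tomato+. Cntn2, a contactin on early axons, commissural axons included, had 192, 163 and 224 normalized reads in GFP+, 435 in GFP-, 3929, 3698 and 3927 in Tomato+ and 2477 in Tomato-. Its log2 difference of 4.32 (SE 0.14, adjusted p = 1.73e-06) was the largest of the role. Nrxn3, a presynaptic neurexin, had 118, 86.6 and 104 in GFP+, 93.8 in GFP-, 573, 752 and 578 in Tomato+ and 738 in Tomato-. For this gene each negative library lay within the range of its own positive group, and the positive groups differed by 6.13-fold (SE 0.20, adjusted p = 7.73e-05).

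Chl1, a relative of L1, had 105, 188 and 88.1 normalized reads in GFP+, 110 in GFP-, 765, 402 and 785 in Tomato+ and 554 in Tomato-. Replicate 2 stood apart in both groups, high in GFP+ and low in Tomato+, yet the groups did not overlap and the fold was 5.14 (SE 0.36, adjusted p = 0.00172). Ncam1, the neural cell adhesion molecule and the highest of the role by the mean over all 6 positive libraries, is also made by other embryonic cells. It had 1347, 1550 and 1344 in GFP+, 1521 in GFP-, 3947, 3532 and 3802 in Tomato+ and 2847 in Tomato-, and was 2.66-fold higher in Tomato+ (SE 0.09, adjusted p = 4.13e-05). L1cam was 4.95-fold and Nrcam 1.95-fold higher. Cntn1, at 35.9 to 42.9 in GFP+ and 62.3 to 96.5 in Tomato+, was called at 2.00-fold (adjusted p = 0.0466) but not with the averaging (0.418), with edgeR (0.0526), or without GFP+ replicate 1 or 3 or Tomato+ replicate 1 or 3 (0.112 to 0.196).

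All 9 genes of vesicles and secretion were higher in Tomato+, with a median log2 difference of 2.77, and 6 of them with replicates 1 and 3 averaged. Rab3c, a small GTPase of secretory vesicles, had 34.4, 49.8 and 33.0 normalized reads in GFP+, 116 in GFP-, 882, 756 and 927 in Tomato+ and 1262 in Tomato-. The Tomato- library was the highest, and Tomato+ was 21.6-fold above GFP+ (SE 0.23 on the log2 scale, adjusted p = 1.44e-05). Syt1, the calcium sensor of synaptic vesicle release, had 36.6, 21.2 and 52.9 in GFP+, 69.5 in GFP-, 326, 425 and 354 in Tomato+ and 501 in Tomato-. It kept the order of Rab3c, with a 10.3-fold difference (SE 0.35, adjusted p = 0.00033).

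Scg3, a granin-binding protein of secretory granules and the highest of the role, had 138, 126 and 153 normalized reads in GFP+, 376 in GFP-, 1023, 821 and 1034 in Tomato+ and 1921 in Tomato-. Tomato- was 2.00 times the Tomato+ mean, and Tomato+ was 6.83-fold above GFP+ (SE 0.16, adjusted p = 2.71e-05). Snap25, a core protein of vesicle fusion, was 6.59-fold higher, Syt4 6.76-fold and Chgb 6.47-fold. Syp, the vesicle protein synaptophysin, was 2.46-fold higher (adjusted p = 0.00423) but did not pass with the averaging (0.1). Chga and Rab3a were the lowest of the role. Chga (12.4-fold) rested on 9 reads over the 3 GFP+ libraries and was lost with the averaging (0.138). Rab3a (12.6-fold) had 0.731, 26.7 and 2.20 in GFP+, so its level there came mostly from replicate 2. Its log2 difference, 3.65, was 4.84 without GFP+ replicate 2, 2.84 without GFP+ replicate 1, 2.98 with the averaging, 2.74 with edgeR and 2.75 with DESeq2. It was lost with the averaging (adjusted p = 0.105), with edgeR (0.0751) and without any of 4 libraries, GFP+ replicate 1 or 3 or Tomato+ replicate 1 or 3 (0.0602 to 0.0675).

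The transmitter genes had few reads in the libraries of the Hoxb1GFP line and many in those of the Mef2c-Cre;RosatdT line. Gad2, an enzyme that makes GABA, had 0, 0 and 6.61 normalized reads in GFP+, 8.69 in GFP-, 734, 1005 and 700 in Tomato+ and 951 in Tomato-. From 6 reads over the GFP+ libraries and 2491 over the Tomato+ libraries the ratio was 436.6 (exact 95% interval 200.3 to 1191), and in the fit the adjusted p was 0.000164. The fitted log2 difference, 8.67, was 9.65 without GFP+ replicate 3, which held all 6 reads. The same ratio of Tomato- to GFP- was 109.5 (59.2 to 229.5), from 630 and 10 reads.

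Slc17a6, the vesicular glutamate transporter of brainstem and diencephalic neurons, had 1.46, 0 and 1.10 normalized reads in GFP+, 0 in GFP-, 233, 494 and 246 in Tomato+ and 178 in Tomato-. The GFP+ libraries held 3 reads in all, and the ratio was 331.9 (113.2 to 1613), with an adjusted p of 9.18e-05 in the fit. GFP- held 0 reads, so Tomato- was at least 68.4-fold higher, taking 3 reads in GFP- as the limit that a count of 0 allows. The exact 95% interval of this ratio, which also covers the counting error of the 118 reads in Tomato-, began at 54.8. Gad1, the other GABA-synthesising enzyme, had 8.78, 48.9 and 13.2 in GFP+, 0.869 in GFP-, 206, 181 and 223 in Tomato+ and 524 in Tomato-. Gad1 was the only member in which GFP- lay below every GFP+ library while Tomato- lay above every Tomato+ library. Tomato+ was 10.7-fold above GFP+ (SE 0.59 on the log2 scale, adjusted p = 0.00311), and its log2 difference of 3.42 was 4.11 without GFP+ replicate 2. GFP- held 1 read, and the ratio of Tomato- to it was 603.3 (107.6 to 23900).

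The 3 kinesin motors, which carry cargo along axons, were higher in Tomato+. Kif5c, the highest of the role, had 1717, 1695 and 1648 normalized reads in GFP+, 2497 in GFP-, 4263, 3795 and 4235 in Tomato+ and 3437 in Tomato-, and differed by 2.43-fold (SE 0.08, adjusted p = 3.64e-05). Kif1a, which carries synaptic vesicle precursors, had 270, 211 and 226 in GFP+, 624 in GFP-, 1486, 1419 and 1399 in Tomato+ and 1059 in Tomato-, a 6.10-fold difference (SE 0.13, adjusted p = 1.41e-05). In both genes the order was GFP+, GFP-, Tomato-, Tomato+. Kif5a had 347, 309 and 392 in GFP+, 292 in GFP-, 1037, 1222 and 1100 in Tomato+ and 814 in Tomato-, and differed by 3.21-fold (SE 0.14, adjusted p = 0.000103).

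Uchl1, a ubiquitin hydrolase abundant in neurons, was the only member with a lower mean in Tomato+. It had 170 to 183 normalized reads in GFP+, 242 in GFP-, 86.4 to 147 in Tomato+ and 51.3 in Tomato-. The fold of Tomato+ over GFP+ was 0.684 (95% interval 0.448 to 1.04) and did not pass (adjusted p = 0.135). An antisense gene shares 295 bases of its exons.

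**Figure D2:**
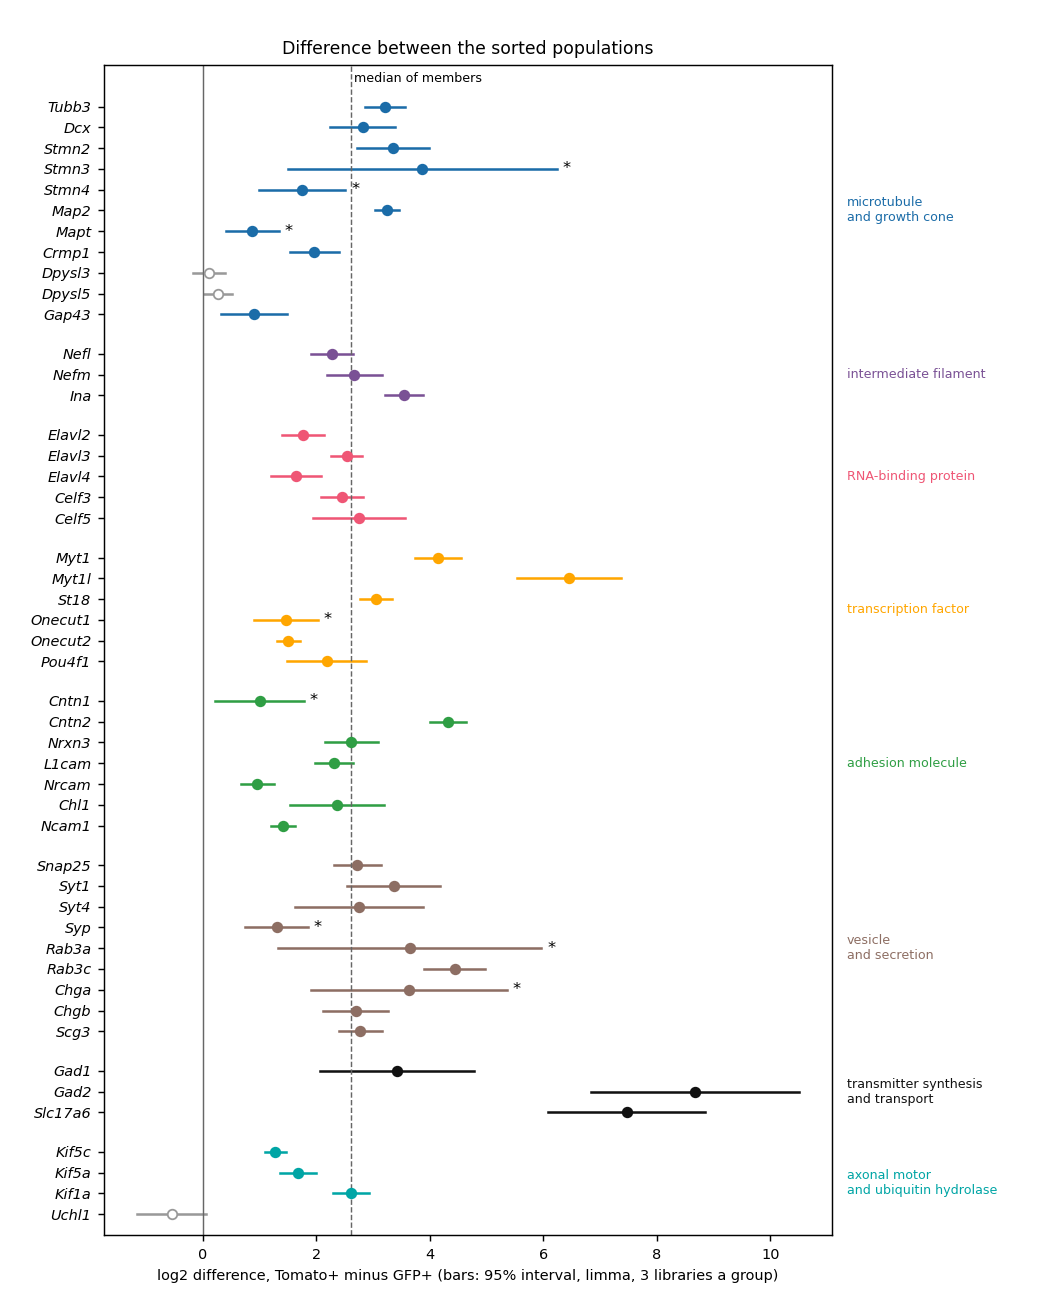
Log2 difference of each member between Tomato+ and GFP+ cells, with 95% intervals from limma over 3 libraries a group, open grey symbols for the 3 genes that did not pass, and an asterisk on the 8 genes that did not pass with replicates 1 and 3 averaged. Gad2, Slc17a6 and Myt1l lie farthest to the right at 8.67, 7.47 and 6.45, and the dashed line marks the median of 2.61.

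Levels of different genes were compared per kilobase of annotated exon (GENCODE M21). In GFP+ cells the highest members were Dpysl3 with 828 normalized reads per kb, Dpysl5 with 502 and Gap43 with 382. In Tomato+ cells they were Nefm with 1120.5 per kb, Ina with 1013 and Dpysl3 with 883. Ina ranked 12 of the 48 in GFP+ and 2 in Tomato+, and Uchl1 ranked 9 in GFP+ and 31 in Tomato+. The order of the neuronal genes per length was thus not the same in the sorted populations.

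Replicate 2 of a group departed from the mean of replicates 1 and 3 for some members, in either direction. In GFP+ cells replicate 2 was more than 1.5-fold above that mean for 5 members and below it by as much for 11. In Tomato+ cells it was above for 1 member, Slc17a6, and below for 4. No share of all genes is given beside these counts, and replicate 2 stood apart over all genes, as given above. They therefore show nothing particular to the members. Of the 45 members called, 40 passed in each of the 6 fits that left out a library, and Stmn3, Mapt, Gap43, Cntn1 and Rab3a did not.

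Within the Hoxb1GFP line, the neuronal genes were mostly higher outside the GFP gate. This comparison has a single negative library and therefore no test, and it uses the same GFP+ libraries as the comparison above. A gene was counted where the negative library lay at least 2-fold beyond all 3 positive libraries and 50 normalized reads were reached on whichever side was higher, as in 43 members. In 17 members GFP- was above, where 4.14% of all genes were, and in 0 it was below, where 4.88% were. The 17 held 4 of the 6 transcription factors (Myt1, Myt1l, Onecut1, Onecut2), 5 of the 9 vesicle genes (Snap25, Syt4, Rab3c, Chgb, Scg3) and 3 of the 5 RNA-binding proteins (Elavl3, Celf3, Celf5). They also held Tubb3, Stmn2, Stmn3, Ina and Kif1a, but no adhesion molecule and no transmitter gene. Without a limit on size, GFP- lay above all GFP+ libraries for 37 of 48 members and below all for 4. No share of all genes is given beside these counts, so they describe the members only. The median ratio of GFP- to the GFP+ mean, with 1 added to both, was 2.08 for the members and 0.993 for all genes that reached the minimum. GFP- still lay below every Tomato+ library for 42 of the 48, the exceptions being Dpysl5, Onecut1, Onecut2, Uchl1, Chga and Stmn3. This count too has no share of all genes beside it.

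Within the Mef2c-Cre;RosatdT line the gate made less difference to most members, again against a single negative library with the limits given above. By the same rule, all Tomato+ libraries were above Tomato- for 5 of 48 members, where 8.56% of all genes were, so the share of members is close to the background. Tomato- was above for 1, Gad1, where 7.23% of all genes were. The 5 were Tubb3, Stmn4, Gap43, Celf5 and L1cam. Gap43 had the widest gap, with 1050, 1025 and 1046 normalized reads in Tomato+ and 261 in Tomato-, a ratio of 3.97, and L1cam had 985, 912 and 1036 against 356. The median ratio of the Tomato+ mean to Tomato- was 1.28 for the members and 0.992 for all genes that reached the minimum. By role, the median of this ratio was 1.53 for microtubule and growth cone genes and 0.816 for vesicle genes. Without a limit on size, Tomato- was below all Tomato+ libraries for 31 members, within their range for 8 and above all for 9. Here again no share of all genes is given.

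The negative libraries themselves differed between the lines. Tomato- was at least 2-fold above GFP- for 23 of the 46 members that reached the minimum, where 19.4% of all genes were, and GFP- was above for 1, Uchl1, where 16.6% were. The transmitter genes, Rab3c (10.8-fold), Nrxn3 (7.80-fold), Syt1 (7.13-fold), Nefm (6.71-fold) and Map2 (6.39-fold) had wide gaps, whereas Tubb3 (1.11-fold) and Crmp1 (1.07-fold) were nearly level. These are ratios of single libraries and carry no estimate of spread, and the limits of the Tomato- library given above apply here too.

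**Figure D3:**
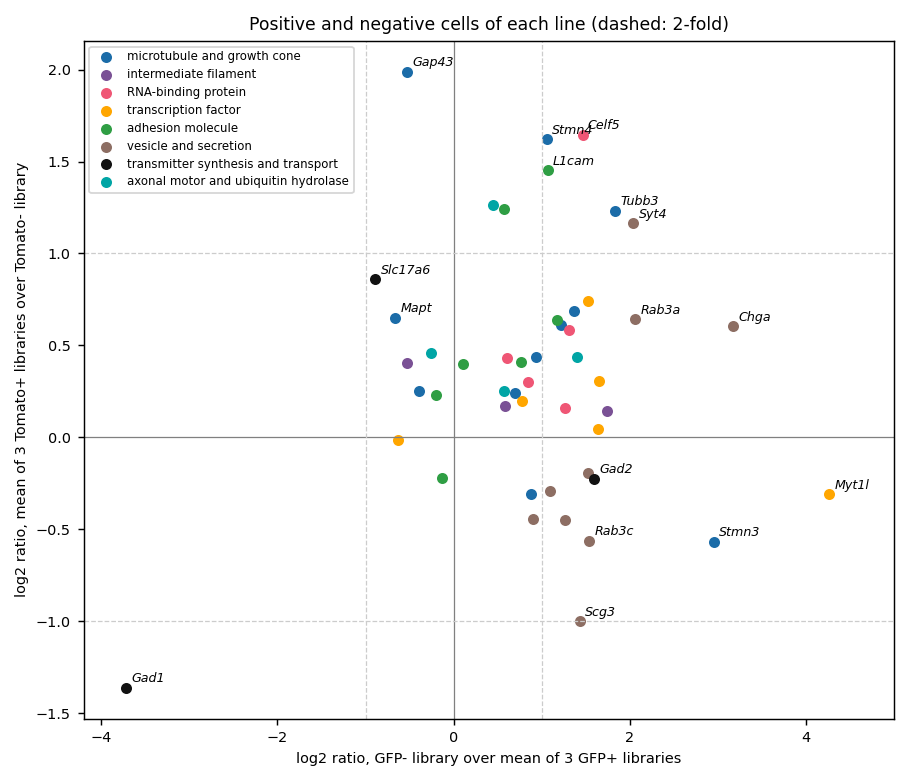
Each point is a member, with the log2 ratio of GFP- to the mean of 3 GFP+ libraries on the horizontal axis and that of the mean of 3 Tomato+ libraries to Tomato- on the vertical axis. Most points lie right of 0, Myt1l farthest at 19.1-fold, while on the vertical axis few pass the dashed 2-fold lines, and Gad1 lies alone at the lower left.

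A wider list of 44 neuronal genes, also chosen with earlier results of these data known, had 35 in the table. In Tomato+ cells 22 of these were higher and 1 was lower, 12 missed the threshold, and the median log2 difference was 1.54. As shares of all genes, 20% were higher and 19.7% lower in that fit, and 9.24% and 8.9% with replicates 1 and 3 averaged, and the counts of this and the other lists stand against these. With the averaging 21 of the wider list were higher and 0 lower. Syn2, a synapsin, had 2.20 to 5.12 normalized reads in GFP+ and 87.8 to 135 in Tomato+. Pou4f2 was at 0 reads in all 3 GFP+ libraries. Among 15 neural progenitor genes, 8 rose, 1 fell and 6 missed the threshold, and with the averaging 6 rose and 1 fell, Sox3 (adjusted p = 0.211) and Lhx2 (0.384) being lost. Fabp7, a radial glia lipid-binding protein, had 170 to 359 in GFP+ and 3241 to 3548 in Tomato+, and Dbx1 151 to 182 against 485 to 643. Olig2, of the motor neuron progenitors, was the one that was lower, with 187 to 214 in GFP+ and 6.47 to 65.1 in Tomato+. The progenitor list summed to 11985 to 13905 in GFP+, 24324 in GFP-, 21118 to 22737 in Tomato+ and 20614 in Tomato-, so here GFP- was the highest library, which it was not for the summed neuronal members.

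Regulators of neuronal subtype were split, with 6 of 11 higher, 1 lower and 4 that did not pass, and 4 higher and 1 lower with the averaging. The lower gene was Isl1, which is also counted among the SHF mesoderm genes below. Neurog1, a neurogenin of sensory neurons, had 36.9 to 59.5 normalized reads in GFP+ and 197 to 221 in Tomato+, and Lhx4 had 49.7 to 87.6 against 159 to 237. Lhx4 did not pass with the averaging (adjusted p = 0.079). Of 6 neural crest and glia genes in the table, Tfap2b (506 to 714 against 3900 to 4791) and Tfap2a (672 to 752 against 919 to 1163) were higher, none was lower and 4 missed the threshold. With the averaging Tfap2a did not pass (adjusted p = 0.166). Of 5 genes for repressors of neuronal genes, 2 were lower in Tomato+, 0 higher and 3 did not pass. Rest had 6806, 6284 and 6518 in GFP+, 4387 in GFP-, 3779, 3497 and 3727 in Tomato+ and 3150 in Tomato-, so it was highest in GFP+ and lowest in the Tomato libraries, and it fell by 0.83 on the log2 scale from GFP+ to Tomato+ (adjusted p = 0.000135). Ptbp1, a splicing repressor of neuronal exons, had 8337 to 8506 in GFP+ and 6291 to 7365 in Tomato+ (adjusted p = 0.0225), but it did not pass with replicates 1 and 3 averaged (0.179).

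Markers of other cell types moved between the same groups. All 10 SHF mesoderm genes, all 6 cardiomyocyte genes and all 8 endoderm genes in the table were lower in Tomato+ than in GFP+, with summed levels of 5105 to 5167 against 10740 to 11790, 3942 to 4459 against 27698 to 32979, and 988 to 1138 against 7105 to 7840. With replicates 1 and 3 averaged 6 of 10, 6 of 6 and 7 of 8 were lower, the lost genes being Tbx1 (adjusted p = 0.264), Hand2 (0.2), Tbx5 (0.075), Mef2c (0.104) and Foxa2 (0.0842). Leading genes were Hand1, Gata4 and Foxf1, then Actc1, Myh6 and Tnnt2, then Shh, Cldn6 and Krt18. All 6 erythroid genes (Hbb-y and Hba-x among them) and all 5 macrophage genes (led by Ptprc, Cx3cr1 and Csf1r) were higher in Tomato+, also with the averaging. The erythroid list summed to 475 to 840 in GFP+, 268671 in GFP-, 106327 to 129848 in Tomato+ and 245962 in Tomato-. The macrophage list summed to 39.6 to 60.6 in GFP+, 180 in GFP-, 927 to 1110 in Tomato+ and 1170 in Tomato-, and C1qb was at 0 in every GFP+ library. Of 5 endothelial genes, Cdh5, Pecam1 and Emcn were higher, also with the averaging, and 2 did not pass, with sums of 1253 to 1355 in GFP+, 2345 in GFP-, 1932 to 2221 in Tomato+ and 2593 in Tomato-. Erythroid markers were thus high in every group but GFP+, macrophage markers were high in both Tomato groups, and the makeup of the sorted cells and the reporter line cannot be told apart in these groups. The part of these markers in the neuronal difference was not tested.

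**Figure D4:**
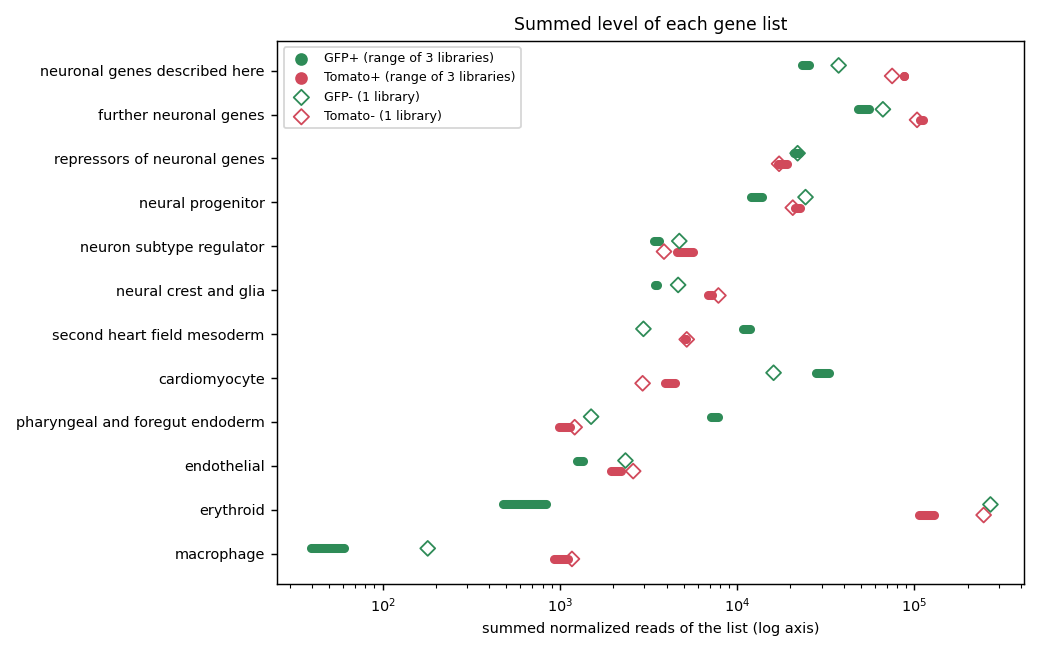
Summed normalized reads of the 48 neuronal genes and of 11 other lists on a log axis, as bars over the range of 3 libraries for GFP+ (green) and Tomato+ (red) and diamonds for the single negative libraries. The neuronal genes run from 23248 to 25492 in GFP+ to 87322 to 87533 in Tomato+, the erythroid list shows the widest gap, and the mesoderm, cardiomyocyte and endoderm lists lie the other way.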

How the data were processed

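Per the labels, RNA from sorted cells was amplified with the Ovation system, which keeps no strand, and sequenced. The methods also hold a second description (TruSeq kit, single-end reads, RSEM with an Ensembl annotation) that differs from the labels, which were followed here. Per the submitters' processing notes the authors used bcl2fastq 2.17.1.14, STAR 2.5.2, HTSeq and DESeq2 in R 3.3.4 on build mm10. The annotation behind the HTSeq counts is not named there. The deposited values, of the kind called signal here, are reads per gene that the authors divided by a size factor for each library. In all 8 libraries 100% of values were whole multiples of what 1 read is worth (tolerance 0.01), so whole reads were recovered, for 22668185 to 41597870 reads per library. Columns of the authors' own comparison (mean, log2 fold change, statistic, p-values) were not used.

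Members and lists were chosen with earlier results of these data known. GFP+ and Tomato+ libraries were compared with limma 3.58.1 with a trend (R 4.3.3), two-sided, on log2(normalized reads + 1), for 16153 genes with a mean of at least 10 (149 were below), with Benjamini-Hochberg adjustment over all of them and calls at an adjusted p under 0.05. Negative libraries, 1 per line, were compared by size only. The limma, edgeR and DESeq2 fits were tested on simulated reads with independent replicates, without the likeness of replicates 1 and 3 seen here. The other steps were not tested on simulated data. Values per library are given, in each role, for the member with the highest mean and up to 3 called members with the largest change, a mean of at least 100 in the higher group and no overlap, and for members at least 2-fold apart in opposite directions in the lines. Up to 3 genes of each other list are named by the same size rule. A few genes that this rule picks are not reported here. A member outside this rule is described by its values as well, since the list is the subject. Exon lengths and overlaps came from GENCODE M21 by symbol (96.7% of symbols matched). Alternatives were other pseudocounts (0.5 and 10), filters (none, and 50), TMM scaling, edgeR 4.0.16 and DESeq2 1.42.0 on the recovered reads, a replicate block, replicates 1 and 3 averaged, and leaving out each library.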

Additional observations from a re-analysis of the deposited data

Results flagged for a closer look

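In 25 members the positive libraries all lay on one side of the negative library in one line and all on the opposite side in the other. In 24 of them GFP- was above every GFP+ library and Tomato- below every Tomato+ library, and in 1, Gad1, the reverse. The values below are the log2 ratio of positive to negative cells in the Mef2c-Cre;RosatdT line minus that in the Hoxb1GFP line. With 1 negative library per line the difference was not tested. The counts above set no limit on size and have no share of all genes beside them.

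Only Celf5 (3.11) and Tubb3 (3.06) were at least 2-fold beyond all 3 positive libraries in both lines. Syt4 (3.20) and Rab3a (2.70) had differences of like size. Among other microtubule and growth cone genes the difference was 2.67 for Stmn4, 2.05 for Stmn2, 1.83 for Crmp1, 1.37 for Dcx and 0.93 for Dpysl5. Of the RNA-binding proteins it was 1.89 for Celf3, 1.43 for Elavl3, 1.14 for Elavl4 and 1.03 for Elavl2. The transcription factors Onecut1, Onecut2 and St18 had differences of 2.26, 1.68 and 0.97. The adhesion molecules ran from 2.52 for L1cam over 1.81 for both Cntn1 and Cntn2 to 1.17 for Nrcam. Ina had a difference of 1.88, Kif1a 1.84, Uchl1 1.71 and Kif5c 0.82. Gad1 had -5.08, with 1 read in GFP-.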

How the results depend on the processing

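The count of members higher in Tomato+ ran from 37 to 45 over the alternatives and that of members lower was 0 in each. It was 45 with DESeq2 and 43 with edgeR. Without 1 library it was 40 to 45, and those of all genes were 2132 to 3876 higher and 2067 to 4025 lower. With replicates 1 and 3 averaged, 1493 genes were higher and 1437 lower, against 3224 and 3186. With a pseudocount of 10 the members' median log2 difference was 2.30. Of 717 values of single members under alternatives, 25 lost the call and none of a called member changed direction. Dpysl3, not called, had -0.04 without GFP+ replicate 2. Same-numbered GFP+ and Tomato+ libraries deviated together by a correlation of 0.011 to 0.023, so gene levels gave no sign of a pairing by number. Mitochondrial ribosomal RNA was 39.1% in replicate 2 of GFP+ and 41.7% in that of Tomato+, against 31.4% to 32.4% in replicates 1 and 3. Whether same-numbered libraries were handled together was not tested. With a replicate block 44 members were higher and Cntn1 was lost, and 3009 genes were higher and 2982 lower.

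GFP- was above all GFP+ libraries for 27 members at 1.5-fold, 2 at 4-fold and 11 with a minimum of 200 normalized reads, and below for 1 with a minimum of 20. All Tomato+ libraries were above Tomato- for 9 members at 1.5-fold, 0 at 4-fold and 3 with a minimum of 200, and below for 2 at 1.5-fold and 0 at 4-fold. GFP- exceeded Tomato- for 6 members at 1.5-fold, and Tomato- exceeded GFP- for 15 at 4-fold. Shares of all genes are not given at these limits, so the counts describe the members only. Depth limits the genes with few reads, Gad2, Slc17a6, Gad1, Myt1l and Chga, whose ratios have wide intervals.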
